A study of Mus musculus with 23 samples.

Results

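The genes described here were low in mouse embryonic stem cells that had lost RAS and been moved to a differentiation medium, and were not low when the repressor ERF had been knocked out as well. They were chosen from group means of CPM (a gene's counts over the library total without the row Gm26917, on the usual counts-per-M scale) as L = log2(mean CPM + 1), where the 1 is a pseudocount. A gene was kept where L in the differentiation medium was at least 1.5 higher with RAS present than with RAS deleted, both with ERF wild type. It also had to be at least 1.5 higher with RAS deleted and ERF knocked out than with RAS deleted alone, and less than 1.5 higher with ERF knocked out alone than with both lost. Of 53607 gene rows, 202 met all of these, and 5 of those were left out by name (Has2, Fgf5, Pou3f1, Spry2 and Dnmt3b). The remaining 197 genes, of which 191 are annotated as protein-coding, are the subject of this account. Of the 372 genes that passed the first threshold, 166 missed the second.

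The 23 libraries fell into 8 groups by ERF, RAS and medium. All cells were of the Raslox/lox background: H-Ras-/- and N-Ras-/-, with the third RAS gene flanked by lox sites and a Ubiq-CreERT2 transgene, a tamoxifen-dependent Cre recombinase. Groups called WT below therefore already lacked 2 of the RAS genes and were not given the drug. Groups called RASKO had 4-hydroxytamoxifen for 6 days, groups called ERFKO carried the ERF knockout without the drug, and groups called RASERFKO carried the knockout and had the drug. The drug and the deletion cannot be told apart in this design, nor can the ERF genotype and the line that carries it, and the number of clones is not given in the sources used here. Each genotype was sampled in 2iL, a medium with the MEK inhibitor PD0325901, the GSK3 inhibitor CHIR99021 and LIF, and after 48 hours in FA, where Activin A and FGF2 take the cells toward epiblast-like cells. Each group held 3 libraries, except WT in FA with 2. Nothing in the labels says that replicates came from separate cultures, so each p-value measures only the spread between these libraries, which may be technical.

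RAS proteins relay signals from growth factor receptors, such as those for FGF, to the kinase ERK. ERF is a member of the ETS family that binds DNA and represses transcription, and ERK phosphorylates it and drives it out of the nucleus. In pluripotent cells FGF and ERK signalling is known for moving cells out of the naive state, and ERK inhibition in 2iL is known for holding them there.

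Total counts ran from 16.2 to 29.9 M per library, with Gm26917 at 17.6 to 27.9% of each. Erf transcript in 2iL was higher, not lower, with the ERF knockout: it stood at 101 ± 9.74 CPM (SD, n = 3) in WT and 154 ± 25.3 CPM (SD, n = 3) in ERFKO. In FA it stood at 71.8 and 94.6 CPM in WT, 89.7 to 98.2 CPM in RASKO, 67.9 to 85.4 CPM in ERFKO and 66.8 to 89.4 CPM in RASERFKO, every RASERFKO library lying below every RASKO library. Genotypes are therefore given as labelled. Replicate 1 of WT and of RASKO, in both media, had a chromosome 8 median raised by 0.24 to 0.37 on the log2 scale, against -0.07 to 0.00 in the other 19 libraries. Replicate 1 of ERFKO and of RASERFKO in 2iL had a chromosome 11 median raised by 0.16 and 0.10, where 16 of the 197 genes lie. In FA that median stood at 0.06 and 0.03 in their replicate 1, against -0.06 to -0.05 in replicates 2 and 3. Chromosomes other than 8 and 11 had offsets of up to 0.092 in size. Without the 4 libraries with a raised chromosome 8, the rule chose 192 genes, of which 167 were among the 197. The labelled cell type held: the 6 pluripotency markers summed to 1544 to 2219.6 CPM in 2iL and 1809 to 2099.7 CPM in FA. The 6 primitive endoderm markers (Gata4, Gata6, Sox7, Sox17, Foxa2 and Pdgfra) summed to 64.4 to 126 CPM in FA in WT and to 73.4 to 83.7 CPM in ERFKO. In RASKO and RASERFKO they summed to 11.4 to 15.2 CPM and 15.8 to 27.6 CPM, so they were low in both RAS-deleted groups. The 6 fibroblast markers were lowest in RASKO in FA, at 5.65 to 8.32 CPM, against 12.7 to 12.9 CPM in WT, 11.2 to 14.8 CPM in ERFKO and 12.0 to 14.5 CPM in RASERFKO, with Lum at 0 in every FA library. The 7 trophoblast markers summed to 35.7 to 41.3 CPM in WT, 38.0 to 48.2 CPM in RASKO, 19.6 to 22.6 CPM in ERFKO and 27.9 to 32.8 CPM in RASERFKO in FA. The similar WT and RASKO sums came from different genes: Hand1 averaged 9.51 CPM in WT and 0.447 CPM in RASKO, and Gata3 2.13 and 24.2 CPM. The 6 neural markers were highest in RASERFKO in FA, at 185 to 198 CPM, against 93.9 to 121 CPM in WT, 110.3 to 134 CPM in RASKO and 82.2 to 112 CPM in ERFKO. The 6 mesoderm markers summed to 22 to 25.4 CPM in WT, 9.94 to 16.1 CPM in RASKO, 10.8 to 14.2 CPM in ERFKO and 19.5 to 23.5 CPM in RASERFKO. Zscan4c and 5 other markers of rare cells resembling the early cleavage embryo summed in FA to 18.4 to 44.5 CPM in WT, 63.0 to 240.4 CPM in RASKO, 62.5 to 149 CPM in ERFKO and 44.2 to 113 CPM in RASERFKO. The part of these cell types in the levels of the 197 genes was not tested.

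The values in FA chose these genes, so they are given as a description and support nothing. The median gene stood at 19 CPM in WT, 3.33 CPM in RASKO, 17 CPM in ERFKO and 18.7 CPM in RASERFKO. RASKO held a median of 15.4% of the WT level, with a range over genes of 0 to 33.8%. In RNA of whole cultures, fewer cells of a type and less RNA per cell cannot be told apart. RASERFKO held a median of 98.3%, with quartiles of 75.8 and 122% and a range of 23.6 to 283%. So the double knockout was near WT as a group but spread widely around it: 93 genes were above 100% of WT, 30 were above 150% and 10 were below 50%. In 54 genes all 3 RASERFKO libraries lay above both WT libraries, and in 49 all 3 lay below both (27.4 and 24.9% of the 197, against 21.1 and 18.3% of all tested genes).

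The genes were reduced rather than silent without RAS. In RASKO in FA, 43 genes had a mean under 1 CPM, 114 had 1 to under 10 CPM and 40 had 10 CPM or more. A single gene, Gm20425, had 0 counts in all 3 libraries, and its model overlaps Trf on the same strand, so its counts are uncertain. The edge of the rule was close-set: Flrt3 (1.502), Fkbp10 (1.51) and Pim2 (1.51) were just inside the smaller of both differences of at least 1.5, and Soat1 (1.499), Foxp1 (1.49) and Adm2 (1.49) just outside. On the third condition, Ccdc194 and Arrdc4 (both 1.29) were the nearest inside, and Arhgef5 (1.52) and Epha7 (1.53) the nearest outside.

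**Figure D1:**
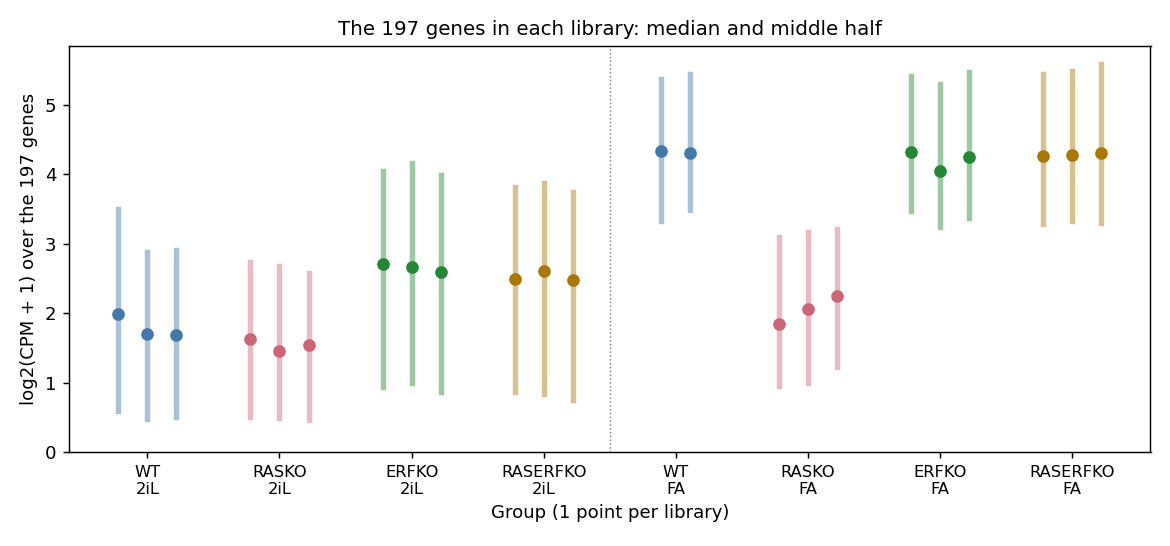
Median (point) and middle 50% (bar) of log2(CPM + 1) over the 197 genes, for each of the 23 libraries, by group on the x axis. The 3 RASKO libraries in FA, at 1.85 to 2.25, lie near the 2iL libraries, and every other FA library lies at 4.05 or above; the FA groups chose the genes, and the 2iL groups did not.

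Between the media the genes were mostly higher in FA, by less in RASKO than in the other genotypes by the median. L was at least 1 higher in FA than in 2iL for 176 of 197 genes in WT (7.96% of all 20372 tested genes), with a median difference of 2.35. In ERFKO this held for 145 genes (median 1.72, 7.11% of all tested genes), in RASERFKO for 140 (median 1.97, 8.87%), and in RASKO for 50 (median 0.28, 5.29%). In RASKO 13 genes were at least 1 lower in FA than in 2iL, which held for 3.25% of all tested genes. The FA side of each of these differences was used by the rule, so no test is given.

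Transcription regulators made up 26 of the 197 genes. This and the other role groups were drawn up after the values were seen, so their counts are descriptions. Sox11, a SoxC factor of neural and other progenitors (chr12:27334264-27342574), stood in FA at 102 and 92.9 CPM in WT, 7.63, 13.5 and 12.8 in RASKO, 81.8, 74.2 and 93.8 in ERFKO, and 118, 118 and 115 in RASERFKO. RASKO was the only low group, and the double knockout lay above WT in every library. Sox1, a SoxB1 factor of early neural plate (chr8:12395295-12400126), stood at 53.6 and 48.8 CPM in WT, 8.78, 8.83 and 11.1 in RASKO, 46.5, 45.6 and 58.8 in ERFKO, and 91.3, 93.4 and 90.1 in RASERFKO. All 3 double-knockout libraries of Sox1 were above every WT and ERFKO library. Ebf1, an early B-cell and mesenchymal factor (chr11:44617317-45008091), was uneven in WT: it stood at 82.2 and 37.6 CPM in WT, 5.37, 2.93 and 1.95 in RASKO, 45.1, 37.7 and 53.8 in ERFKO, and 38.2, 32.4 and 30.9 in RASERFKO. The WT libraries of Ebf1 differed from each other by more than the 3 RASERFKO libraries did, and the RASKO libraries did not reach any of them. Jade2, a subunit of a histone acetyltransferase complex (chr11:51813455-51857653), stood at 36.9 and 35.6 CPM in WT, 3.24, 3.42 and 3.99 in RASKO, 33.6, 23.5 and 37.2 in ERFKO, and 35.4, 34.7 and 33.3 in RASERFKO, the ERFKO range taking in those of WT and RASERFKO.

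Myc, a growth regulator that ERK signalling is known to raise and stabilise (chr15:61985391-61990374), came back least among the 26 regulators. It stood at 63 and 45.1 CPM in WT, 1.1, 2.32 and 7.03 in RASKO, 34.4, 26.5 and 41.9 in ERFKO, and 18.1, 17.8 and 13.8 in RASERFKO. The RASERFKO mean was 30.6% of WT, and all 3 of its libraries lay below every WT and ERFKO library while lying above every RASKO library. Lin28b, an RNA-binding repressor of let-7 maturation and a formative-state gene (chr10:45376620-45486395), went the other way. It stood at 51.2 and 35.7 CPM in WT, 3.99, 5.19 and 6.51 in RASKO, 53.7, 40.8 and 61.7 in ERFKO, and 77.6, 66.5 and 59.9 in RASERFKO, so each RASERFKO library was above both WT libraries. Hoxb1 and Hoxb3, neighbours in the Hoxb cluster whose models lie 17.8 kb apart, averaged 13.6 and 11 CPM in WT, 0.279 and 0.566 CPM in RASKO and 6.29 and 5.84 CPM in RASERFKO.

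The genes that act on ERK signalling itself were 3: Il17rd and Spred1, both feedback inhibitors, and Grb7, an adaptor that binds receptor tyrosine kinases. Il17rd (chr14:27038941-27107286), a membrane inhibitor also called Sef, stood at 237 and 217 CPM in WT, 27.9, 21.4 and 20.9 in RASKO, 190.2, 158 and 187 in ERFKO, and 202, 212 and 192 in RASERFKO. Its RASERFKO libraries were near WT, at 88.9% of it by the mean. Spred1 (chr2:117121374-117182279), which brings the RAS inhibitor neurofibromin to the membrane, stood at 129 and 106 CPM in WT, 15, 16.8 and 14.9 in RASKO, 111, 99.4 and 125 in ERFKO, and 59.6, 62.6 and 60.5 in RASERFKO. Spred1 and Grb7 returned to 51.7 and 49.2% of WT, with no overlap between RASERFKO and WT for Spred1. In RASKO the 3 genes had a median difference in L of -1.02 between FA and 2iL, and 2 of the 3 were at least 1 lower in FA.

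Ligands, receptors and their modifiers numbered 20, and all 20 were at least 1 higher in L in FA than in 2iL in WT. Gfra1, a co-receptor for GDNF (chr19:58235604-58455909), stood at 37.2 and 42.2 CPM in WT, 3.58, 3.86 and 4.8 in RASKO, 30.5, 24 and 20.2 in ERFKO, and 62.9, 63.7 and 62.9 in RASERFKO. Its 3 double-knockout libraries were above both WT libraries. Wnt8a, a WNT ligand of the primitive streak (chr18:34542313-34548273), stood at 30.3 and 17.7 CPM in WT, 0.289, 1.05 and 4.18 in RASKO, 10.5, 7.9 and 14.5 in ERFKO, and 17.3, 14.9 and 10.2 in RASERFKO. The RASKO libraries of Wnt8a ranged widely, and replicate 3 was the highest. RASKO replicate 3 was the highest of its group in 106 of the 197 genes, against 42 and 49 for replicates 1 and 2. Fzd7, a WNT receptor (chr1:59482424-59486955), and Cntfr, the CNTF receptor subunit (chr4:41657498-41697089), stood in RASKO at 29.4 and 29.3% of WT, and in RASERFKO at 88.9 and 119%. Cnr1, a cannabinoid receptor, returned to 35.2% of WT, the lowest of the 20.

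Adhesion, junction and matrix genes numbered 21. Pcdh1, a protocadherin (chr18:38185914-38212053), had the largest smaller-of-both difference in the rule. It stood at 57.2 and 48.5 CPM in WT, 1.33, 0.828 and 2.47 in RASKO, 34.6, 24.7 and 44 in ERFKO, and 54.3, 60.2 and 48.2 in RASERFKO. The RASKO libraries lay between 0.828 and 2.47 CPM, and the lowest of the other libraries was at 24.7 CPM. Gja1, the gap-junction protein connexin 43 (chr10:56377330-56402513), stood at 346 and 391 CPM in WT, 29.6, 33 and 51.9 in RASKO, 410.2, 448 and 428 in ERFKO, and 302, 302 and 312 in RASERFKO. Col6a5, a collagen VI chain (chr9:105856078-105960643), returned least of all 197 genes, to 23.6% of WT, and stood at 85.5 and 39.2 CPM in WT, 1.33, 1.05 and 0.855 in RASKO, 34.3, 32.1 and 37.7 in ERFKO, and 16.1, 13.1 and 15 in RASERFKO. Fat3, a large atypical cadherin (chr9:15910189-16501285), returned to 245%: it stood at 11.1 and 12.8 CPM in WT, 0.925, 0.883 and 0.522 in RASKO, 32.3, 23.9 and 26.1 in ERFKO, and 31.3, 31.2 and 25.3 in RASERFKO. ERFKO of Fat3 was also above both WT libraries, so the excess over WT appeared with RAS present as well.

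**Figure D2:**
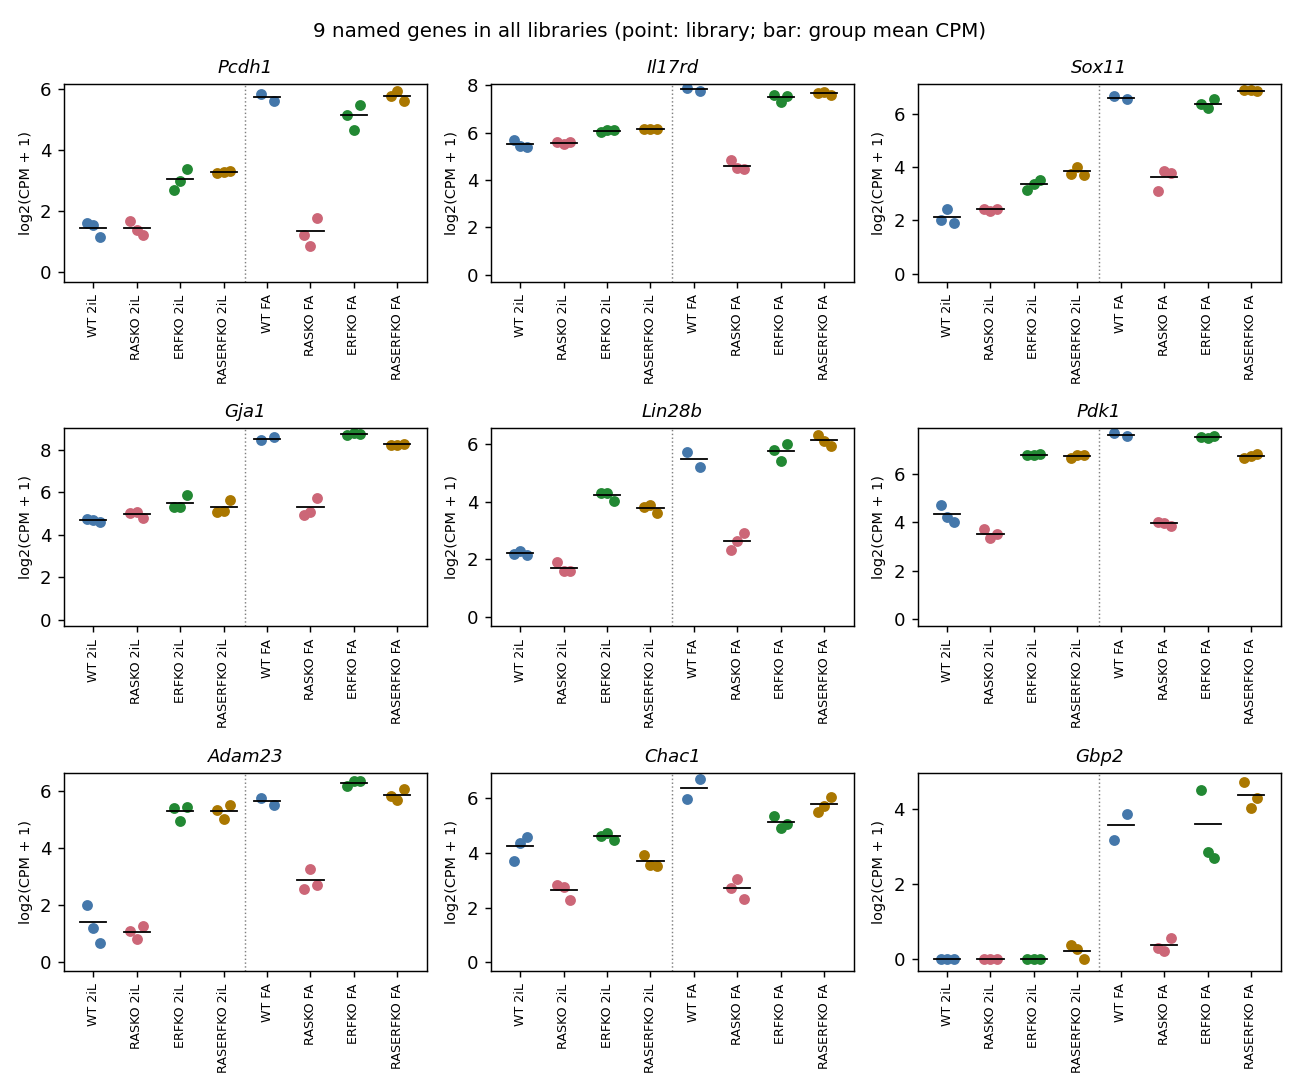
log2(CPM + 1) of Pcdh1, Il17rd, Sox11, Gja1, Lin28b, Pdk1, Adam23, Chac1 and Gbp2 in each of the 23 libraries (points), with a bar at the group mean CPM on the same scale; groups are on the x axis and a dotted line separates 2iL from FA. In each panel the RASKO libraries in FA lie below every other FA library, whereas in 2iL Adam23, Pdk1 and Lin28b are high in all 6 ERF-knockout libraries and low in the 6 others.

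Interferon-response and antigen-presentation genes numbered 16, and 15 of them stood above 100% of WT in the double knockout in FA, with a median of 151%. They include 4 neighbouring guanylate-binding protein genes on chromosome 3, interferon-induced GTPases: Gbp7, Gbp3, Gbp2b and Gbp2, with gaps of 9.88, 21.6 and 1.42 kb. Gbp2 stood at 8.05 and 13.5 CPM in WT, 0.231, 0.166 and 0.475 in RASKO, 21.8, 6.24 and 5.47 in ERFKO, and 25.4, 15.2 and 18.5 in RASERFKO. Gbp7 stood at 1.66 and 3.67 CPM in WT, 0.231, 0.110 and 0.380 in RASKO, 5.79, 2.17 and 1.63 in ERFKO, and 9.07, 6.05 and 7.48 in RASERFKO. Gbp genes resemble each other, so the estimated counts can be split uncertainly among them. Psmb8, an immunoproteasome subunit, and Tap2, a peptide transporter, lie 2.07 kb apart on chromosome 17 and stood at 245 and 205% of WT in RASERFKO. Oasl2, an interferon-induced OAS-like protein (chr5:114896936-114912234), stood at 19.6 and 25.7 CPM in WT, 1.21, 1.88 and 4.7 in RASKO, 20.9, 9.16 and 8.4 in ERFKO, and 36.5, 35.9 and 31.2 in RASERFKO. Bst2, a membrane tether of viruses also called tetherin (chr8:71534255-71537456), was the exception of the 16. It stood at 74.4 and 85 CPM in WT, 9.07, 6.07 and 3.37 in RASKO, 94.5, 101 and 109 in ERFKO, and 42.4, 43.6 and 52.6 in RASERFKO, with the double knockout at 58.0% of WT.

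Promoters of 3 of these genes are shown because the group was high and low together in FA and these windows hold the interferon-stimulated response element. The sequences are the 250 bases before the start site in RefSeq on GRCm38.p6, read 5′ to 3′ on the gene's strand, with a match to the element in capitals. They lie at chr3:142620413-142620662 (plus strand, Gbp2), chr3:142530086-142530335 (plus strand, Gbp7) and chr8:71537473-71537722 (minus strand, Bst2).
Gbp2: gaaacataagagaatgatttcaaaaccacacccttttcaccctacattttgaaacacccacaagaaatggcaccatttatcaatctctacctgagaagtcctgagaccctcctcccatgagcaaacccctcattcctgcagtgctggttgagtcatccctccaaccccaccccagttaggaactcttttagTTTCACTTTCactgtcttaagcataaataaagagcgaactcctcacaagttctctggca
Gbp7: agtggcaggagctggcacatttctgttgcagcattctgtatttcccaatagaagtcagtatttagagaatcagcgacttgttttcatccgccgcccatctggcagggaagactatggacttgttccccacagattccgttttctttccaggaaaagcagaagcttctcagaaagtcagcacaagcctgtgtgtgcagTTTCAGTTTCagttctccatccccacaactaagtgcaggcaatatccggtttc
Bst2: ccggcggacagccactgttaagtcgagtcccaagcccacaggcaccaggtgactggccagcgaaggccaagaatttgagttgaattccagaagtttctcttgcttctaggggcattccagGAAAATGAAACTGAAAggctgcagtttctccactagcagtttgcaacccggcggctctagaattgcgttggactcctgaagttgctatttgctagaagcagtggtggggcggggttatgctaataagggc
The element was searched on both strands as TTTC, any 2 bases and TTTC again, and the matches begin at positions -59, -53 and -130 from the start in Gbp2, Gbp7 and Bst2. Bst2 holds an overlapping match at -124. Of the 12 genes in the group with a window of 300 bases (250 before to 50 after the start), 7 held it: Bst2, Ddx60, Erap1, Gbp2, Gbp2b, Gbp3 and Gbp7. Counted by window instead of by gene, it stood in 3.0% of the windows of all tested genes.

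Stress-response genes numbered 6: Chac1, Trib3, Ddit3, Nupr1, Pck2 and Slc6a9, known targets or partners of the factors ATF4 and CHOP, which act when amino acids run short or proteins misfold. Chac1, which degrades glutathione (chr2:119351229-119354381), stood in FA at 61.3 and 103 CPM in WT, 5.55, 7.23 and 3.94 in RASKO, 39.2, 29.1 and 32.3 in ERFKO, and 44.1, 50.4 and 64.8 in RASERFKO. Trib3, a pseudokinase (chr2:152337422-152344032), stood at 47.1 and 108 CPM in WT, 8.73, 9.5 and 5.89 in RASKO, 59.1, 39.1 and 57.3 in ERFKO, and 36.2, 38.2 and 62.4 in RASERFKO. Ddit3, which encodes CHOP (chr10:127290774-127296288), stood at 9.22 and 29.9 CPM in WT, 3.64, 4.03 and 2.37 in RASKO, 25.1, 24.7 and 28 in ERFKO, and 8.07, 10.1 and 18.8 in RASERFKO. For each of these genes the WT libraries differed from each other by more than the RASKO libraries did, replicate 2 being the higher. For Ddit3 replicate 1 of WT lay within the RASERFKO range and below every ERFKO library. Slc7a7, a transporter of cationic amino acids (chr14:54369442-54417780) that stands in the transport group, stood at 190.4 and 205 CPM in WT, 6.18, 18.6 and 33.9 in RASKO, 146, 98.4 and 141 in ERFKO, and 132, 134 and 154 in RASERFKO.

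These promoters are shown because Chac1 and Nupr1 were lower in RASKO in 2iL as well, and Ddit3 is one of few members with an ETS consensus. The capitals mark the amino acid response element TTGCATCA (or its complement) in Chac1, Nupr1 and Slc7a7. It stood in windows of 2 of the 6 stress-response genes, all of which have one, and Slc7a7 is of the transport group. In Ddit3 they mark the reverse complement of CCGGAAG, an ETS consensus. The windows are the 250 bases before the RefSeq start on GRCm38.p6, at chr2:119350992-119351241 (plus strand, Chac1), chr7:126625471-126625720 (minus strand, Nupr1), chr14:54417703-54417952 (minus strand, Slc7a7, 1 of 5 starts) and chr10:127290543-127290792 (plus strand, Ddit3).
Chac1: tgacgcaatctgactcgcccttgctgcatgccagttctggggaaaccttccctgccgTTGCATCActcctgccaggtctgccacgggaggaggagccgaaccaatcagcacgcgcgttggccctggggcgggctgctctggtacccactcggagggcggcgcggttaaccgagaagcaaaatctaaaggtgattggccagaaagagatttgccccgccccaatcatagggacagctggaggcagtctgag
Nupr1: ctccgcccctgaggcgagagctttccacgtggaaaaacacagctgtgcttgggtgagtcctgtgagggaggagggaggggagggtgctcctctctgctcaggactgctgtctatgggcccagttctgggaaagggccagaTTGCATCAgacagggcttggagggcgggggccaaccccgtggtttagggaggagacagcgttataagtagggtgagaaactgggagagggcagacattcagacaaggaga
Slc7a7: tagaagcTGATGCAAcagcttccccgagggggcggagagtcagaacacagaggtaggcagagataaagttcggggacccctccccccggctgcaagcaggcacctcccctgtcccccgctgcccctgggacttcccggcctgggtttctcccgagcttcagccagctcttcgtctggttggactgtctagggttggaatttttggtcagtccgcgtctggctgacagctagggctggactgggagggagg
Ddit3: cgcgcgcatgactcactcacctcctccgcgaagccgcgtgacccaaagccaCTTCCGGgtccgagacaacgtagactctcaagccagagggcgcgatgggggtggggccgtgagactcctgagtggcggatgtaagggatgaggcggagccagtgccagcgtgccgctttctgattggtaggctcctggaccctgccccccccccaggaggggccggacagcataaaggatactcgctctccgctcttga

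Metabolism and transport genes numbered 25. Pdk1, which inhibits pyruvate dehydrogenase (chr2:71873224-71903858), stood at 203 and 188 CPM in WT, 15.1, 14.7 and 13.5 in RASKO, 184, 176 and 189 in ERFKO, and 98.5, 105 and 112 in RASERFKO. Its RASERFKO libraries were 53.8% of WT by the mean and did not overlap WT or RASKO. St6gal2, a sialyltransferase, averaged 0.217 CPM in RASKO, 7.42 CPM in WT and 12.9 CPM in RASERFKO. Neuronal cytoskeleton and transport genes numbered 11. Kif1a, an axonal motor (chr1:93015464-93101951), stood at 28.1 and 31.5 CPM in WT, 3.99, 5.47 and 7.79 in RASKO, 56.8, 45 and 60.9 in ERFKO, and 76.7, 83.3 and 65.5 in RASERFKO, and so was above WT in every ERFKO and RASERFKO library.

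Imprinted genes and X-inactivation RNAs numbered 5. Peg10, an imprinted gene derived from a retrotransposon (chr6:4747306-4760517), stood at 2324 and 1945 CPM in WT, 145, 156 and 159.5 in RASKO, 1357, 1159.9 and 1615 in ERFKO, and 728, 711 and 674 in RASERFKO. It lies 99 bases from Sgce, another imprinted gene on the opposite strand, which averaged 23.1 CPM in WT, 6.32 CPM in RASKO and 20.7 CPM in RASERFKO. Phlda2, an imprinted growth regulator (chr7:143501545-143503150), stood at 20.3 and 18.2 CPM in WT, 0.982, 1.27 and 1.9 in RASKO, 26.3, 26.8 and 27.3 in ERFKO, and 17.4, 20.9 and 18.6 in RASERFKO. Xist, the RNA that coats the inactive X (chrX:103460366-103483254), stood at 22.5 and 14.8 CPM in WT, 0.694, 3.15 and 6.6 in RASKO, 13.5, 14.5 and 21.5 in ERFKO, and 26.3, 22.9 and 27.3 in RASERFKO, and its neighbour Ftx averaged 12.9, 2.87, 11.4 and 11.2 CPM in the same order of groups. The germline and testis histone group numbered 6, with Hist1h2ba and Hist1h2aa 306 bases apart on chromosome 13.

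Over the genome, 23 pairs of the 197 genes lay within 100 kb of each other in the GENCODE M21 annotation of GRCm38. Chromosome X held 16 genes (8.12%, against 3.40% of tested genes), and chromosome 8 held 11 (5.58%, against 5.02%).

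**Figure D3:**
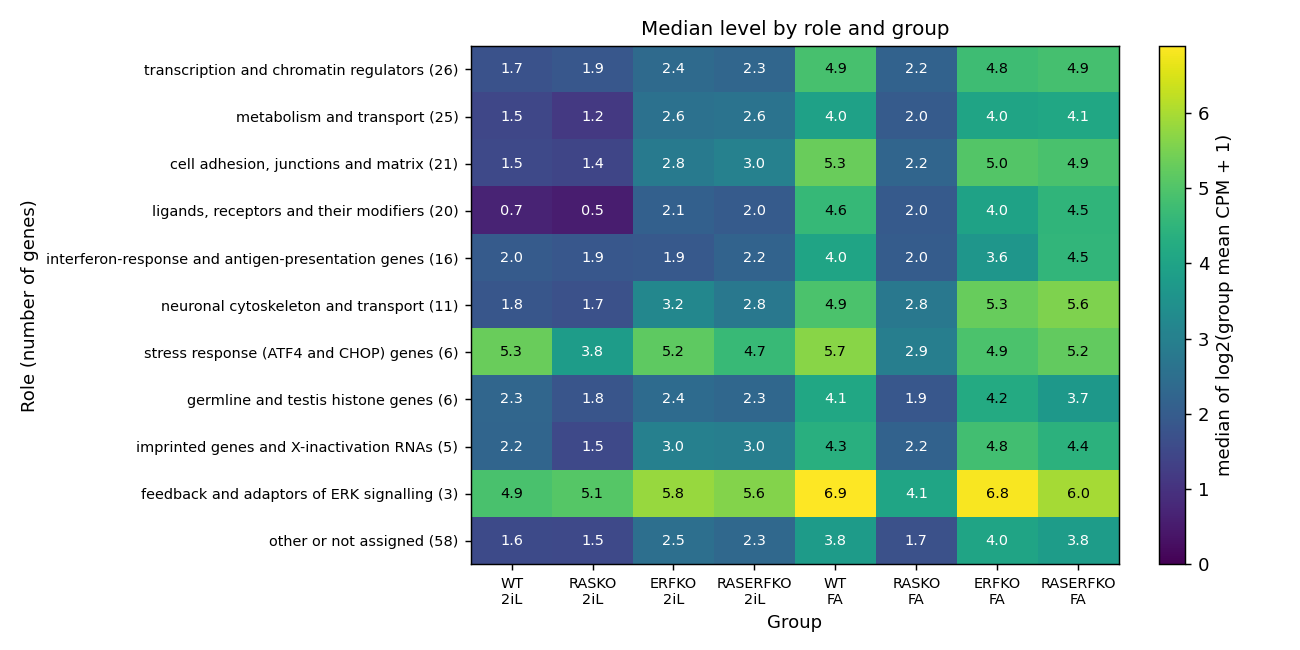
Median over the genes of each role group (rows, with their number) of log2(group mean CPM + 1) in the 8 groups (columns), as printed in each cell and by colour; levels are to be read along a row, since CPM is not scaled by gene length. Each row is lower in RASKO than in the other FA columns. In 2iL every row but those of ERK feedback and of transcription regulators is lower in RASKO than in WT. The stress-response row differs most there, at 3.8 against 5.3.

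The rule used no 2iL library, so the same genes can be tested there. Genes were tested with edgeR's quasi-likelihood test in 1 model of all 23 libraries, and called at an adjusted p under 0.05 and at least 2-fold, with p-values adjusted over all 20372 tested genes. The 2iL medium holds a MEK inhibitor in every group, and ERK activity was not measured. With RAS present, ERFKO was higher than WT in 79 of the 197 genes and lower in 5, where 5.2% of all tested genes were higher and 4.52% lower (9.72% in either direction). The median log2 difference was 0.82 over the 197 genes and -0.0019 over all tested genes, and it was positive in 153. With RAS deleted, RASERFKO was higher than RASKO in 90 of the genes and lower in 3 (5.83 and 7.15% of all tested genes). The median was 1.07 against -0.0105, and positive in 157. The median hardly moved when genes at 0 in a whole group were set at a bound of 3 counts per library and genes under it in both groups were left out (0.81 over 189 genes and 1.04 over 189). WT and ERFKO are separate lines, so the ERF genotype and the line cannot be told apart in these contrasts. Without the 4 libraries with a raised chromosome 8, the contrasts called 90 genes (86 higher) and 92 genes (89 higher). Of the higher calls, 8 of the 79 and 8 of the 90 did not pass the low-count filter within the 2iL groups compared and were tested only through other groups, including FA groups where the genes are high. That leaves 71 and 82, of which 71 and 81 were called in a fit of only the groups compared.

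Markers of other cell types also differed between these 2iL groups, in both directions. The 6 markers of cells resembling the early cleavage embryo summed to 7.71 to 15.2 CPM in WT, 49.0 to 70.1 CPM in RASKO, 33.1 to 100.6 CPM in ERFKO and 44.5 to 137 CPM in RASERFKO. The primitive endoderm markers summed to 15 to 25.6 CPM in WT, 12.3 to 19.6 CPM in RASKO, 27.4 to 63.2 CPM in ERFKO and 20.4 to 27.6 CPM in RASERFKO. The trophoblast markers summed to 23.1 to 24.7 CPM in WT, 21.8 to 24.9 CPM in RASKO, 16.9 to 18.9 CPM in ERFKO and 17.1 to 20.0 CPM in RASERFKO. The neural markers summed to 61.9 to 104 CPM in WT, 64.8 to 91.7 CPM in RASKO, 47.6 to 53.9 CPM in ERFKO and 55.6 to 56.8 CPM in RASERFKO. Fibroblast markers summed to 25.1 to 30.2 CPM over WT and RASKO and 18.1 to 27.3 CPM over ERFKO and RASERFKO, and mesoderm markers to 7.79 to 13.4 CPM over all 4 groups. The part of these cell types in the 2iL results was not tested.

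The higher calls of both contrasts shared 70 genes, 88.6% of the calls with RAS present and 77.8% of those with RAS deleted; 99 genes were higher in at least one and 98 in neither. Over all tested genes the 581 shared calls (2.85% of those tested) were 54.8 and 48.9%. Among the 147 of the genes that passed the low-count filter within the groups compared in both contrasts, 67 and 82 were called higher and 63 were shared (94.0 and 76.8%), against 64.5 and 51.5% among all 16313 genes that passed. These contrasts share no library, but both compare the same ERF genotypes, and in neither can the genotype and the line be told apart. In 84 of the 197 genes all 6 ERF-knockout libraries in 2iL lay above all 6 ERF wild-type libraries, which held for 10.4% of all tested genes.

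**Figure D4:**
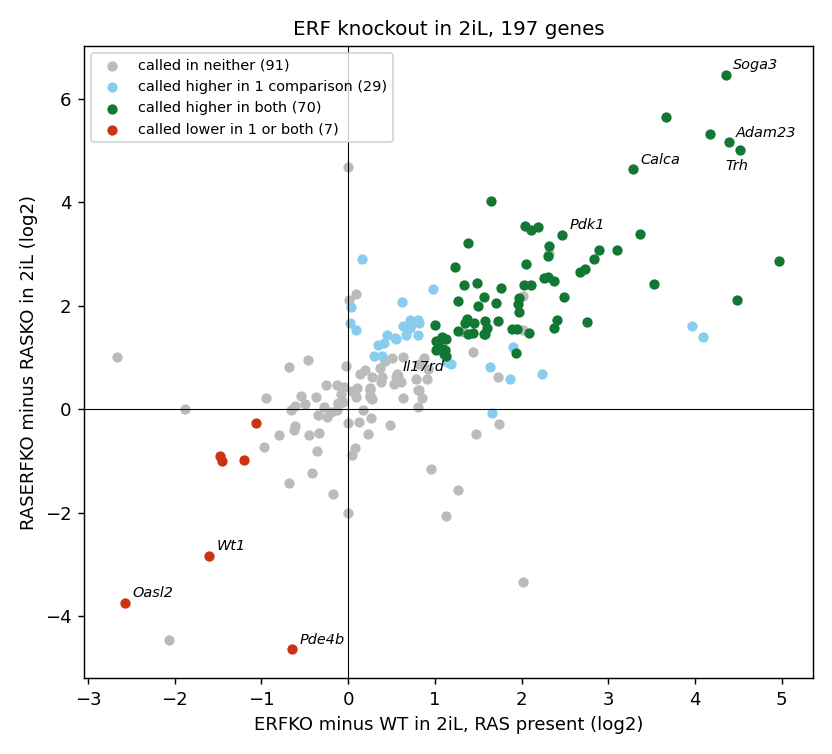
Fitted log2 difference of each of the 197 genes for ERF knockout in 2iL, with RAS present (x axis) and RAS deleted (y axis); colour gives the edgeR calls, with their number in the legend. The 70 genes called higher in both lie at the upper right and the 7 called lower in at least one at the lower left; values of genes with almost no counts in 2iL depend on the fit.

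Adam23, a cell-surface protein that binds integrins (chr1:63445891-63596276), stood in 2iL at 3.01, 1.31 and 0.602 CPM in WT, 1.12, 0.737 and 1.39 in RASKO, 41.3, 29.8 and 42.2 in ERFKO, and 38.8, 31.3 and 44.2 in RASERFKO. The ranges were far apart, and the log2 difference was 4.39 (SE 0.31, edgeR adjusted p 1.41e-08) with RAS present and 5.16 (SE 0.35, edgeR adjusted p 3.09e-09) with RAS deleted. Without WT replicate 1 the first was 5.34. In FA it stood at 52.4 and 44.7 CPM in WT, 4.91, 8.56 and 5.46 in RASKO, 69.9, 80.2 and 80.5 in ERFKO, and 55.3, 49.6 and 66.3 in RASERFKO, so ERFKO in 2iL was near the level of WT in FA. Pdk1 stood in 2iL at 25.4, 17.6 and 14.9 CPM in WT, 12, 9.11 and 10.5 in RASKO, 109, 109 and 113 in ERFKO, and 99.9, 109 and 110.2 in RASERFKO, with differences of 2.47 (SE 0.13, edgeR adjusted p 2.39e-11) and 3.38 (SE 0.14, edgeR adjusted p 3.25e-13). Lin28b stood at 3.51, 3.85 and 3.49 CPM in WT, 2.73, 2.01 and 2.03 in RASKO, 18.8, 18.8 and 15.2 in ERFKO, and 13, 13.7 and 11.1 in RASERFKO, and differed by 2.26 (SE 0.18, edgeR adjusted p 8.54e-09) and 2.53 (SE 0.21, edgeR adjusted p 3.87e-09). Optn, an autophagy receptor, stood at 6.47, 3.39 and 3.01 CPM in WT, 4.33, 2.01 and 2.72 in RASKO, 18.8, 21.3 and 26.3 in ERFKO, and 19.1, 26.8 and 22.5 in RASERFKO, and rose by 2.30 (SE 0.26, edgeR adjusted p 1.61e-06) and 2.96 (SE 0.28, edgeR adjusted p 7.99e-08).

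Trh, the precursor of thyrotropin-releasing hormone (chr6:92242061-92244650), and Calca, which encodes calcitonin and CGRP (chr7:114631478-114636357), were near 0 in 2iL without the knockout. Trh stood at 0.228, 0.154 and 0.0602 CPM in WT, 0.210, 0.268 and 0.190 in RASKO, 3.43, 3.71 and 4.17 in ERFKO, and 5.55, 8.89 and 6.93 in RASERFKO, with differences of 4.52 (SE 0.69, edgeR adjusted p 6.51e-05) and 5.00 (SE 0.64, edgeR adjusted p 4.44e-06). Calca stood at 0.729, 0.385 and 0.181 CPM in WT, 0.280, 0.201 and 0.190 in RASKO, 3.49, 5.85 and 4.59 in ERFKO, and 5.04, 6.64 and 4.99 in RASERFKO and differed by 3.28 (SE 0.34, edgeR adjusted p 2.21e-07) and 4.65 (SE 0.39, edgeR adjusted p 6.06e-09). Soga3, whose product resembles a suppressor of autophagy, had 1 count in the 3 RASKO libraries and 100 in RASERFKO, a ratio of 114 with an exact 95% counting interval of 20.0 to 4547. Epha8, Foxr2, Mcoln3 and Ccdc194, with almost no counts in 2iL, are among the calls that did not pass the low-count filter there, and no fold is given for them. The Ccdc194 call with RAS present was also lost without WT replicate 1, ERFKO replicate 1 or 3, or the 4 libraries with a raised chromosome 8.

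By role, the transport group had 15 of 25 genes higher with RAS present and 15 with RAS deleted, and the ligand and receptor group 11 and 8 of 20, against 5.2 and 5.83% of all tested genes. Those that also passed the filter within the groups compared were 14 and 14 in the transport group and 10 and 7 in the ligand and receptor group. The adhesion and matrix group had 8 and 9 of 21 (7 and 9 by that filter), among them the laminin chains Lama1 and Lamb1. Lamb1 stood at 58.8, 58.7 and 58.8 CPM in WT, 45.3, 55 and 51 in RASKO, 215, 292 and 443 in ERFKO, and 128, 174 and 181 in RASERFKO, and differed by 2.41 (SE 0.23, edgeR adjusted p 8.97e-07) and 1.72 (SE 0.23, edgeR adjusted p 1.75e-05). ERFKO libraries of Lamb1 spread widely, as did the primitive endoderm markers there. Pcdh1 stood at 2.05, 1.93 and 1.26 CPM in WT, 2.24, 1.61 and 1.33 in RASKO, 5.56, 6.99 and 9.38 in ERFKO, and 8.59, 8.89 and 9.13 in RASERFKO, with 2.03 (SE 0.30, edgeR adjusted p 4.94e-05) and 2.41 (SE 0.31, edgeR adjusted p 4.41e-06).

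In the interferon group edgeR called 0 of 16 genes higher with RAS present and 3 with RAS deleted (Tap2, Tapbp and Bst2). The stress-response group had 0 and 3 of 6 higher. Over all tested genes 5.2 and 5.83% were higher. The difference of either group from the others was not tested. At an unadjusted p under 0.05, 1 of the 16 was higher and 3 lower with RAS present, and 5 higher and 3 lower with RAS deleted, where 37.7 and 46.8% of all tested genes reached that p in either direction. DESeq2 called 0 and 4 of the 16 higher. Bst2 stood at 33, 18.3 and 18.6 CPM in WT, 23.2, 17.9 and 16.7 in RASKO, 26.3, 34.3 and 33.8 in ERFKO, and 31.6, 42.2 and 41.3 in RASERFKO, with differences of 0.39 (SE 0.26, edgeR adjusted p 0.288) and 1.04 (SE 0.26, edgeR adjusted p 0.00439), and its call was lost without replicate 2 or 3 of RASKO or of RASERFKO. Among the genes called lower, Parp9, an ADP-ribosyltransferase induced by interferon, stood at 14.2, 14.9 and 15.7 CPM in WT, 15.3, 13.9 and 14.9 in RASKO, 6.53, 5.13 and 4.65 in ERFKO, and 8.67, 6.56 and 7.86 in RASERFKO, with -1.48 (SE 0.21, edgeR adjusted p 1.5e-05) with RAS present. Oasl2 had 51 counts in RASKO and 3 in RASERFKO in 2iL, a ratio of 14.9 with an exact 95% counting interval of 4.82 to 74.7, and was not called without the 4 libraries with a raised chromosome 8. The Gbp genes had so few counts in 2iL that a difference was not detectable at this depth: Gbp2 had 0 counts in WT, RASKO and ERFKO. Wt1, a zinc-finger factor, was the one gene called lower in both contrasts. It stood at 1.18, 2.0 and 1.44 CPM in WT, 2.31, 2.55 and 2.47 in RASKO, 0.453, 0.642 and 0.411 in ERFKO, and 0.593, 0.282 and 0.0845 in RASERFKO, with -1.60 (SE 0.33, edgeR adjusted p 0.000778) and -2.83 (SE 0.35, edgeR adjusted p 1.03e-06) (-3.56 without RASERFKO replicate 1), although in FA it was among the genes higher in RASERFKO than in RASKO by the rule. The other genes lower with RAS present were Itga1, 2810459M11Rik and Serpinf1. The 2810459M11Rik call was lost without WT replicate 1 (-0.87) or the 4 libraries with a raised chromosome 8, and the Serpinf1 call when any library but ERFKO replicate 2 was left out (-1.13 to -0.94). With RAS deleted Pde4b was another, from 8 counts to 0; it did not pass the filter within those groups, and no fold is given.

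Sox11 differed by 1.45 (SE 0.19, edgeR adjusted p 8.78e-06) and 1.67 (SE 0.18, edgeR adjusted p 3.84e-07). Il17rd stood at 50.3, 41.8 and 40.9 CPM in WT, 47.7, 44.3 and 47.3 in RASKO, 63.4, 67.2 and 67.8 in ERFKO, and 69.1, 69.8 and 70.4 in RASERFKO, with differences of 0.55 (SE 0.10, edgeR adjusted p 0.000172) and 0.63 (SE 0.10, edgeR adjusted p 2.01e-05), under 2-fold and so not called, while all 6 knockout libraries lay above the 6 others. Spred1 differed by 0.91 (SE 0.09, edgeR adjusted p 6.58e-08) and 0.59 (SE 0.09, edgeR adjusted p 1.33e-05), also under 2-fold. Myc did not pass the test in either contrast (1.32 (SE 0.74, edgeR adjusted p 0.207) and, with RAS deleted, 1.5 (SE 0.66, edgeR adjusted p 0.0806)), at 0.228 to 2.12 CPM in the 12 libraries. Cthrc1, a secreted collagen-triple-helix protein, stood at 0.507 to 1.63 CPM in all 12 and differed by -0.08 (SE 0.29, edgeR adjusted p 0.896) and 0.29 (SE 0.31, edgeR adjusted p 0.494).

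Deletion of RAS in 2iL gave fewer calls among the genes than ERF knockout did. With ERF wild type, 15 of the 197 (7.61%) were lower in RASKO than in WT and 0 higher. Of all tested genes 0.506% were lower and 0.692% higher (1.2% in either direction). The median log2 difference was -0.31, against 0.00 over all tested genes, and it was positive in 56. An unadjusted p under 0.05 was reached by 65 of the genes, against 21.5% of all tested genes. DESeq2 called 21 lower and 2 higher, against 0.643 and 1.13% of the genes it gave an adjusted p. Of the 6 stress-response genes 4 were among the 15. Ddit3 stood at 32.7, 34.7 and 27.3 CPM in WT, 5.73, 6.16 and 4.94 in RASKO, 31, 35.4 and 32 in ERFKO, and 23, 20.5 and 21 in RASERFKO, and differed by -2.50 (SE 0.37, edgeR adjusted p 0.000935). Chac1 stood at 11.8, 19.7 and 22.6 CPM in WT, 6.01, 5.69 and 3.8 in RASKO, 23.2, 25.2 and 21.2 in ERFKO, and 14.2, 10.8 and 10.6 in RASERFKO, and differed by -1.81 (SE 0.30, edgeR adjusted p 0.00216). Nupr1, a small chromatin protein of the stress response, stood at 71.1, 47.3 and 38.7 CPM in WT, 23.7, 15.6 and 16.1 in RASKO, 57.6, 59.6 and 54.2 in ERFKO, and 46.9, 55.4 and 53.5 in RASERFKO, and differed by -1.52 (SE 0.38, edgeR adjusted p 0.0305). Trib3 differed by -1.04 (SE 0.29, edgeR adjusted p 0.0456). The Nupr1 and Trib3 calls were lost without WT replicate 1, or without RASKO replicate 2 or 3, and the Ddit3 and Chac1 calls were kept. The RASKO libraries of these 4 genes lay below every WT library, and RASERFKO lay above RASKO by 1.98 (SE 0.37, edgeR adjusted p 0.000425) for Ddit3, 1.24 (SE 0.31, edgeR adjusted p 0.00369) for Chac1 and 1.54 (SE 0.39, edgeR adjusted p 0.00483) for Nupr1.

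The other 11 were Ubap1l, Trf, Hist1h2ba, Hist3h2ba, Hrk, Tsc22d3, Steap2, Nos3, Sox1, Hapln4 and Prph. Trf, the iron carrier transferrin (chr9:103204001-103230444), stood at 12.3, 5.71 and 3.01 CPM in WT, 2.66, 2.14 and 1.9 in RASKO, 27.5, 30.1 and 32.7 in ERFKO, and 27.6, 23.2 and 25.1 in RASERFKO, and differed by -1.70 (SE 0.36, edgeR adjusted p 0.00952). Without WT replicate 1 it differed by -0.96 and was not called. Its WT libraries spread from 3.01 to 12.3 CPM, with replicate 1 the highest. Sox1, on chromosome 8, stood at 16.8, 10.6 and 10.4 CPM in WT, 5.17, 6.77 and 6.46 in RASKO, 20.6, 21.7 and 25.6 in ERFKO, and 20.6, 17.3 and 21.3 in RASERFKO, and differed by -1.07 (SE 0.17, edgeR adjusted p 0.000919), with the WT library of the raised chromosome 8 again the highest. The count of 15 rests partly on that library: without WT replicate 1 in 2iL 4 were called (Ddit3, Chac1, Tsc22d3 and Ubap1l), and without RASKO replicate 2 or 3 there were 8 and 7. Without the 4 libraries with a raised chromosome 8 there were 8, of which 7 were among the 15, Sox1 and Trf not being among them.

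With ERF knocked out, RAS deletion lowered 2 of the genes and raised 0, where 0.142% of all tested genes were lower and 0.0687% higher (0.211% in either direction). The median was -0.12. Of the 2 lower genes, Gramd3 differed by -1.44 (SE 0.33, edgeR adjusted p 0.0315). It was not called when any 1 library of either group was left out, its values then being -1.56 to -1.23. At an unadjusted p under 0.05 there were 40 genes, against 14.6% of all tested genes. DESeq2 called 5 lower (0.373% of the genes it gave an adjusted p, with 0.183% higher), and edgeR called 0 when replicate 2 or 3 of either group was left out. The difference between both RAS effects, tested as an interaction, was called in 1 of the 197 genes (0.378% of all tested genes), Hist3h2ba. At an unadjusted p under 0.05 there were 38, which is near the 17% of all tested genes.

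The other genes of the pathway were taken from fixed lists, in the FA contrasts that the rule used. Of 22 tested components of FGF, RAS and ERK signalling none is among the 197. With RAS deleted in FA, 2 were higher and 1 lower (8.93 and 8.33% of all tested genes). Fgfr2, an FGF receptor, rose by 1.87 (SE 0.28, edgeR adjusted p 3.24e-05), Ksr1, a scaffold of the pathway, rose by 1.13 (SE 0.19, edgeR adjusted p 7.39e-05), and the kinase Braf changed by -1.21 (SE 0.09, edgeR adjusted p 3.28e-10). With ERF knocked out on the RAS-deleted background, 1 was higher and 2 lower (8.13 and 8.48% of all tested genes): Braf changed by 1.06 (SE 0.08, edgeR adjusted p 5.4e-10), Ksr1 by -1.05 (SE 0.17, edgeR adjusted p 3.14e-05), and Fgf4, the main FGF ligand of these cells, by -1.14 (SE 0.11, edgeR adjusted p 3.57e-08). So Braf and Ksr1 moved in opposite directions in these contrasts, which share the RASKO libraries.

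Of 22 tested ETS factors none is among the 197; 4 were higher and 3 lower with RAS deleted, and 2 higher and 5 lower with ERF knocked out on that background (against 8.93 and 8.33%, then 8.13 and 8.48%, of all tested genes). Ets1 changed by -1.26 (SE 0.21, edgeR adjusted p 4.77e-05) and then 1.38 (SE 0.20, edgeR adjusted p 4.7e-06). Elf3, an epithelial ETS factor, changed by 2.71 (SE 0.16, edgeR adjusted p 1.34e-11) and then -3.19 (SE 0.14, edgeR adjusted p 1.8e-13). Etv4, an activator in the FGF response, was lower in both, by -3.09 (SE 0.21, edgeR adjusted p 2.9e-10) and then -2.95 (SE 0.30, edgeR adjusted p 1.06e-07), and so did not come back without ERF. Of 22 tested ERK response genes 10 were lower and 1 higher with RAS deleted. In the other contrast 4 were higher and 1 lower, the higher ones including Myc and Spred1, which the rule chose, and Spry2, which it left out by name. Spry4 and Dusp6, feedback inhibitors, changed by -6.52 (SE 0.29, edgeR adjusted p 9.99e-14) and -2.89 (SE 0.22, edgeR adjusted p 5.51e-09) with RAS deleted. Their differences between RASERFKO and RASKO were 0.86 (SE 0.38, edgeR adjusted p 0.0739) and 0.25 (SE 0.20, edgeR adjusted p 0.354), and neither passed the test. All 14 naive factors were tested and none is among the 197: 12 were higher with RAS deleted, among them Klf4 at 3.45 (SE 0.17, edgeR adjusted p 1.23e-12), and 13 were lower with ERF knocked out as well, with Klf4 at -3.05 (SE 0.14, edgeR adjusted p 2.75e-13). Of 18 formative and primed genes 3 were higher and 9 lower, then 8 higher and 1 lower, with Lin28b among those lower and then higher by the rule.

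Promoter windows were matched by symbol for 142 of the 197 genes, as 197 windows of which those of 1 gene can overlap, against 16250 windows of 12852 tested genes. The ETS consensus CCGGAAG, searched on both strands as all motifs were, stood in 3.05% of the genes' windows (Ddit3, Dnah1, Lsr, Med14, Pogk and Sh3bgrl) and in 14.9% of all. The shorter core GGAAG, which every CCGGAAG contains, stood in 68.5 and 74.3%, and its extension AGGAAG in 33.0 and 33.3%. The interferon-stimulated response element stood in 7.61% of the genes' windows and 3.00% of all. The amino acid response element TTGCATCA stood in 4.57% (Chac1, Nupr1, Slc7a7, Mctp2, Pld4, Serpinf1, Sh3bgrl and Vldlr) and 0.628% of all. The AP-1 site TGANTCA stood in 5.08 and 5.47%, and the E-box CACGTG in 10.7 and 9.37%. The genes' windows held a median of 12 CpG against 18 over all windows, at 58.3 and 59.7% GC. Of 17 motifs searched the rest are not shown, and a match is only a run of letters.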

How the data were processed

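Directional libraries were made from RNA without ribosomal RNA and read as 75 bp pairs, per the labels' protocols. The tools named are bcl2fastq 2.20.0, fastp 0.20.0 and Salmon (version not given in the sources used here), with the build mm10, per the submitters' processing notes. The deposited per-library tables hold estimated counts per gene symbol (not normalized) and TPM, per the file headers. The deposited matrix equals the estimated counts rounded to whole numbers (0 cells differ). Salmon splits reads among similar transcripts, so close paralogs are less certain.

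Libraries were grouped by their titles. Genes were chosen from CPM without Gm26917, and tested with edgeR 4.0.16 in R 4.3.3: filterByExpr, TMM (library sizes with Gm26917), a robust quasi-likelihood fit of all 23 libraries with 1 coefficient per group, and Benjamini-Hochberg adjustment over 20372 genes, the procedure having been tested on simulated data. All 197 genes passed the filter. Since they could pass through the FA groups where they are high, many had few counts in 2iL, and 24 had at most 3 counts in every WT library there. DESeq2 1.42.0 was an alternative. Standard errors are the absolute log2 difference over the root of the F value. A floor of 3 counts per library gives bounds, and counting intervals are exact at 95% and cover counting error only, since reads carry no molecular identifiers. No 2 replicates agreed within sampling noise: chi-square per degree of freedom was 3.04 to 44.9.

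Named genes are protein-coding members with a WT mean in FA of at least 5 CPM and the 25 largest smaller-of-both differences, the 5 largest rises and falls called in each 2iL comparison, the genes nearest the thresholds and members of the fixed lists. Others were chosen after their values were seen. The members and lists were chosen with earlier results of these data known. Promoter windows are from RefSeq (GRCm38.p6) and positions from GENCODE M21 (GRCm38). Alternatives were another count tool, no low-count filter, only the groups compared, a replicate block, each library left out, other thresholds and pseudocounts, and, added after seeing the data, leaving out the 4 libraries with a raised chromosome 8. A further targeted gene and some of the chosen genes are not reported here.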

Additional observations from a re-analysis of the deposited data

Results flagged for a closer look

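Hist3h2ba, a histone H2B gene on chromosome 11, had a RAS effect in 2iL that differed with the ERF genotype. It stood at 9.07, 5.32 and 4.88 CPM in WT, 3.29, 3.55 and 2.98 CPM in RASKO, 15, 11.4 and 13.1 CPM in ERFKO, and 15.5, 15.7 and 16.3 CPM in RASERFKO. The interaction was 1.34 on the log2 scale (SE 0.27, edgeR adjusted p 0.0162). It was not called without WT replicate 1, RASKO replicate 3 or RASERFKO replicate 2, nor without the 4 libraries with a raised chromosome 8. Replicate 1 of ERFKO and of RASERFKO had a raised chromosome 11 (0.16 and 0.10 on the log2 scale), and without either the interaction was 1.42 and 1.37 and still called. Its neighbours Hist3h2a and Gm12260, 5.15 kb away and a further 4.98 kb on, are also among the 197 genes. Histone genes resemble each other, so the split of reads among them is uncertain.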

How the results depend on the processing

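The choice of genes depended on its settings: 497 genes met a threshold of 1 and 82 met a threshold of 2, while other CPM scalings, pseudocounts and group medians gave 168 to 277 genes, and leaving out each library 173 to 219. The ERF contrasts in 2iL were stable in number: with each library left out, 75 to 87 genes were called with RAS present and 86 to 94 with RAS deleted, and no other setting moved either count by over 1.5 times. The RAS contrasts were not. With ERF wild type, 4 to 20 genes were called with a library left out, 23 with DESeq2, 25 with no low-count filter, 8 without the 4 libraries with a raised chromosome 8 (an alternative chosen after seeing the data) and 29 with no minimum fold. With ERF knocked out, the count of 2 became 0 to 3 with a library left out, 5 with DESeq2, 8 with no filter, 4 with only the groups compared, 5 without those 4 libraries and 6 with no minimum fold. The interaction count of 1 became 0 to 10, 7, 19, 5, 3 and 5 under the same settings. The pathway component and ETS lists in FA, with 20 calls over both contrasts, gave 16 to 20 with a library left out and 41 with no minimum fold. The causes were not tested. Of 582 refits of 49 results for single genes, 527 kept their direction and call, 55 lost the call and 0 reversed, and 34 of the 49 never lost it.

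The groups share replicate numbers, and the labels do not say that a number marks a shared culture or day. Replicate 1 of WT and RASKO shared a raised chromosome 8, and replicate 1 of ERFKO and RASERFKO in 2iL a raised chromosome 11. Deviations from the group means of same-numbered libraries correlated at -0.09 to 0.21, and in no comparison was every pair over 0.1, so no block was used for the values reported. With the replicate block, fitted on the groups compared, RAS deletion gave 16 and 7 calls (ERF wild type and knocked out), ERF knockout gave 75 and 86 (RAS present and deleted), the interaction 15 and the pathway lists 20. In RAS deletion with ERF knocked out every library correlated best with its own number.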
